A study of Mus musculus with 12 samples.

Results

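Imprinted genes that act on fetal growth, 10 in number, were followed through the perinatal period of the mouse lung. The 10 genes were chosen by symbol, with no measured value in the rule, but earlier results of these data were known. All 10 were found among the 16152 genes of the deposited count table. They are *Igf2*, *Dlk1*, *Plagl1*, *Peg3*, *Mest* and *Ndn*, expressed from the paternal copy, and *H19*, *Meg3*, *Cdkn1c* and *Grb10*, expressed from the maternal copy in tissues outside the brain. RNA came from whole, flash-frozen lungs of C57BL/6 mice at 2 embryonic time-points, E15.5 and E18.5, and 2 postnatal time-points, P5 and P8, with 3 replicates at each and 12 libraries in all. Mice of both sexes were used after timed matings, the labels name no transgene, deletion or treatment, and the 3 replicates of each time-point shared a litter. The spread between replicates is therefore a spread within a litter, and a difference between litters cannot be told apart from a difference between time-points.

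An imprinted gene is read from a single parental copy, because the other copy is silenced by marks laid down in the egg or the sperm. Many paternally expressed genes promote fetal growth, with *Igf2*, a secreted insulin-like growth factor, as the best known, and several maternally expressed genes hold it back. Growth genes of this group are known to be high in fetal organs and to fall after birth. The mice here were inbred, so the parental copies cannot be told apart and every value is the sum of both.

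The libraries held between 41337443 and 53901957 reads on the counted genes, and the lowest count of any of the 10 genes in any library was 753, for *Meg3* at P5. Some libraries were high in genes typical of other organs, and the source of this RNA was not tested. All 8 skeletal muscle genes examined were higher in P5 replicate 3, P8 replicate 1 and P8 replicate 2 than in each of the other 3 postnatal libraries, in which *Myod1* was at 0. All 9 thymus genes were higher in P8 replicates 1 and 2 than in each of the other 4 postnatal libraries. Their sum was 24.5 CPM in E15.5 replicate 2 against 0.629 and 0.610 CPM in the other E15.5 libraries, and these 3 libraries are called thymus-high below. All 5 heart genes were higher in E15.5 replicates 1 and 2 than in replicate 3. The lung label was borne out by *Sftpc* and *Nkx2-1*, which were present in all 12 libraries.

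The 10 genes together took between 0.871% and 1.05% of all counts in the 6 embryonic libraries and between 0.152% and 0.209% in the 6 postnatal libraries. *H19* was the fourth most abundant gene of the lung at E18.5 by CPM, the read count of a gene scaled to all mapped reads of its library, with rank 4 of all genes, and stood at rank 460 at P5. *Igf2* went from rank 27 to rank 1988 over the same days. In 9 of the 10 genes, all but *Meg3*, each of the 6 postnatal libraries lay below each of the 6 embryonic ones, and 32.5% of the 15994 genes tested did the same.

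**Figure D1:**
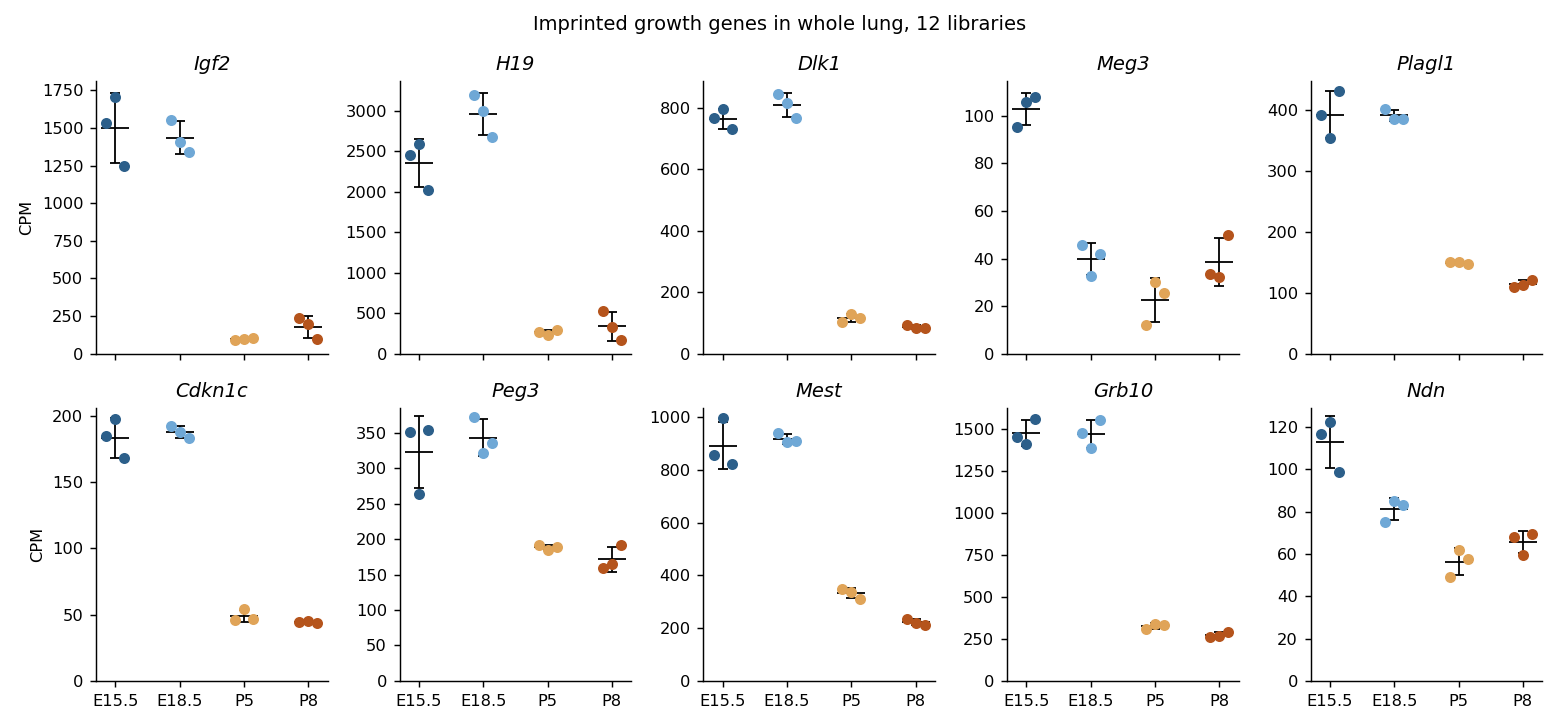
CPM of each gene in the 12 libraries by time-point, with points for libraries, the long horizontal line for the mean and bars for 1 SD (n = 3). Every gene but *Meg3* is split into a higher embryonic and a lower postnatal set, and *Igf2* and *H19* spread widely at P8.

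Levels were compared between genes only after division by the length of the annotated exons. On this scale, in CPM per kb, *H19* led at E15.5 with 959, followed by *Igf2* with 262, *Mest* with 226, *Grb10* with 162 and *Dlk1* with 135. *Cdkn1c* was at 89.97, *Plagl1* at 50.2, *Ndn* at 30.5, *Peg3* at 24.2 and *Meg3* at 5.70. At P5 *H19* still led with 107 and *Mest* came next with 84.1. *Igf2* had dropped below *Grb10* (35.9), *Cdkn1c* (23.9), *Dlk1* (20.8) and *Plagl1* (19.1), to 17.3 CPM per kb.

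The comparison of E18.5 with P5 asks how the lung transcriptome differs on either side of birth. From E18.5 to P5, 7 of the 10 genes were called lower, at an absolute log2 fold change above 1 and an edgeR FDR under 0.05, and none was called higher. Of all genes tested, 9.34% were called lower in this comparison. The log2 fold changes of the 10 genes ran from -3.77 to -0.45 with a median of -1.62, where the median of all genes was 0.00. The other 3 genes, *Peg3*, *Meg3* and *Ndn*, were past the FDR cutoff with smaller changes, and 35.7% of all genes were past it in this direction. Log2 fold changes are given ± their standard error from here on. In each of the 10 genes all 3 P5 libraries lay below all 3 E18.5 libraries, as they did in 42.6% of genes. In RNA from whole lung, fewer cells of a type and less RNA per cell cannot be told apart.

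*Igf2* (ENSMUSG00000048583, mm10 chromosome 7, 142650766 to 142666816, minus strand, 8 exon blocks) changed most. It was at 1554, 1409 and 1343 CPM in the E18.5 replicates and at 93.0, 97.5 and 106.6 CPM in the P5 replicates. The groups were far apart, by more than 10 times the spread within either. The fall was 13.7-fold, so that the log2 fold change was -3.77 ± 0.27 (edgeR FDR = 1.1e-07). *Igf2os*, an RNA read from the opposite strand of the same locus, was at 21.8, 24.5 and 22.8 CPM at E18.5 and at 1.03, 0.723 and 1.08 CPM at P5. The strand setting of the counting is not known, so reads of *Igf2* may be part of these values.

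*H19* (ENSMUSG00000000031, chromosome 7, 142575529 to 142578143, minus strand, 3 exon blocks) is a non-coding RNA that lies next to *Igf2* and shares its enhancers. It was at 3194, 2991 and 2680 CPM at E18.5 and at 266, 236 and 288 CPM at P5. The log2 fold change was -3.40 ± 0.32 (edgeR FDR = 1.2e-06), close to that of *Igf2*, although the genes are read from opposite parental copies.

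Both genes are hosts of a microRNA, as are *Mest* and *Meg3*. The mature sequences are shown because their host transcripts are among those measured here. They are given from RefSeq (GRCm38.p6), 5′ to 3′, with the seed, bases 2 to 8, in capitals. The *Mir675* and *Mir770* hairpins lie in exons of *H19* and *Meg3*, and the *Mir483* and *Mir335* hairpins in introns of *Igf2* and *Mest*.
miR-675-5p (*H19*): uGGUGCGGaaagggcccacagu
miR-675-3p (*H19*): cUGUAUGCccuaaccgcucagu
miR-483-5p (*Igf2*): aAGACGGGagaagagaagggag
miR-483-3p (*Igf2*): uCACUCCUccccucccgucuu
miR-335-5p (*Mest*): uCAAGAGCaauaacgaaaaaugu
miR-335-3p (*Mest*): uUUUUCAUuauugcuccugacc
miR-770-5p (*Meg3*): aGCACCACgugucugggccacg
miR-770-3p (*Meg3*): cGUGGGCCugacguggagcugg
No 2 of the 8 mature RNAs share a seed. These libraries measured the long host RNAs, and the hairpins themselves were listed at no more than 0.197 CPM in any library, so nothing is said here of the mature RNAs.

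*Grb10* and *Cdkn1c*, maternally expressed genes known to restrain growth, were both called lower from E18.5 to P5, as *Igf2* was. *Grb10* (ENSMUSG00000020176, chromosome 11, 11930508 to 12038683, minus strand) encodes an adaptor that damps signalling from the insulin and IGF receptors. It was at 1472, 1384 and 1550 CPM at E18.5 and at 308, 341 and 331 CPM at P5, so that the log2 fold change was -2.08 ± 0.067 (edgeR FDR = 3.9e-10). *Cdkn1c* (ENSMUSG00000037664, chromosome 7, 143458339 to 143461050, minus strand) encodes p57, an inhibitor of cyclin-dependent kinases. It went from 193, 188 and 183 CPM to 45.6, 54.1 and 46.6 CPM, so that the log2 fold change was -1.86 ± 0.071 (edgeR FDR = 1.3e-09). For both genes the distance between the groups was many times the spread within them.

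*Dlk1* (ENSMUSG00000040856, chromosome 12, 109452823 to 109463336, plus strand) encodes a membrane protein with EGF-like repeats, related to the Notch ligands and found on immature cells. It was at 846, 815 and 767 CPM at E18.5 and at 105, 131 and 117 CPM at P5. The log2 fold change was -2.70 ± 0.091 (edgeR FDR = 5.2e-10). Its maternally expressed neighbour *Meg3* (ENSMUSG00000021268, 109541001 to 109571726, plus strand), a long non-coding RNA, moved far less. *Meg3* was at 45.6, 32.5 and 41.9 CPM at E18.5 and at 12.1, 30.1 and 25.8 CPM at P5, with the highest P5 library just under the lowest E18.5 library. The change was -0.75 ± 0.26 (edgeR FDR = 0.022) and turned on P5 replicate 1, the lowest of the 3. It was -0.47 and not past the FDR cutoff without that library, and -1.003 and past both cutoffs without P5 replicate 2.

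*Plagl1* and *Peg3* encode zinc finger proteins that bind DNA. *Plagl1* (ENSMUSG00000019817, chromosome 10, 13060504 to 13131694, plus strand) went from 402, 386 and 386 CPM at E18.5 to 150.0, 150.3 and 148 CPM at P5, so that the log2 fold change was -1.30 ± 0.073 (edgeR FDR = 1.6e-08). *Peg3* (ENSMUSG00000002265, chromosome 7, 6703892 to 6730431, minus strand) went from 372, 321 and 336 CPM to 192, 184 and 189 CPM. Its change of -0.78 ± 0.11 (edgeR FDR = 3.9e-05) was larger than the spread but under the fold cutoff.

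*Mest* (ENSMUSG00000051855, chromosome 6, 30723547 to 30748465, plus strand) encodes an enzyme of the alpha/beta hydrolase fold and is known for its high level in fetal mesoderm. It went from 940.3, 904 and 909 CPM at E18.5 to 347, 338 and 310 CPM at P5, so that the log2 fold change was -1.38 ± 0.086 (edgeR FDR = 3.6e-08). *Ndn* (ENSMUSG00000033585, chromosome 7, 62346569 to 62350262, plus strand, a single exon) encodes necdin, a growth suppressor of the MAGE family. It changed least of the 10 genes, from 75.2, 85.1 and 83.3 CPM to 49.2, 61.6 and 57.8 CPM (log2 fold change -0.45 ± 0.095, edgeR FDR = 0.0011).

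**Figure D2:**
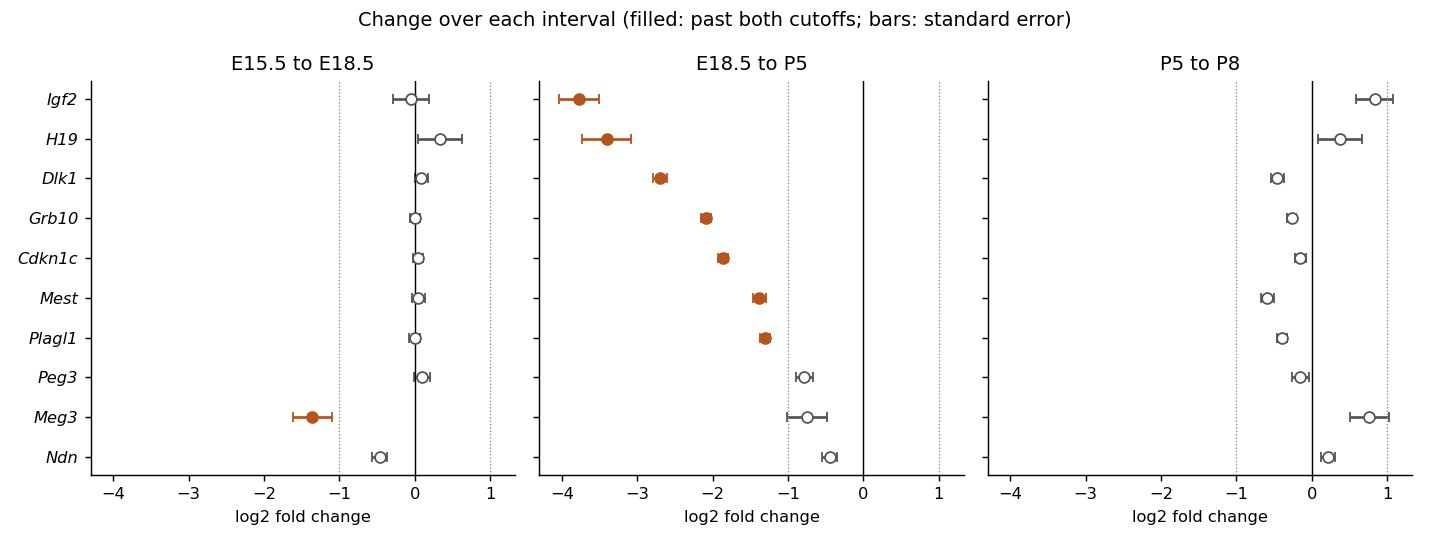
Log2 fold change of the 10 genes over each interval between neighbouring time-points, with bars for the standard error. Filled points are past both cutoffs, and dotted lines mark a log2 fold change of 1 in either direction. The falls lie between E18.5 and P5 for every gene but *Meg3* and *Ndn*, whose changes over E15.5 to E18.5 were as large or larger.

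Before birth the group was nearly level, and *Meg3* was the exception. From E15.5 to E18.5, 1 of the 10 genes was called lower, against 1.46% of all genes tested, and none was called higher. *Meg3* was at 95.4, 106 and 108 CPM at E15.5, all above its E18.5 libraries, and fell by 1.36 ± 0.26 on the log2 scale (edgeR FDR = 0.0047). The summed level of the 5 heart genes was 627 and 696 CPM in E15.5 replicates 1 and 2 and 18.4 CPM in replicate 3. *Meg3* itself was highest in replicate 3. Without replicates 1 and 2 the change of *Meg3* was -1.44 (edgeR FDR = 0.051), from 1 E15.5 library that is assumed to vary as the other groups do. *Ndn* was at 117, 122 and 98.8 CPM at E15.5, above its E18.5 libraries, and changed by -0.47 ± 0.095 (edgeR FDR = 0.0062). Of all genes, 9.87% were past the FDR cutoff and lower, and 19.8% were lower without overlap. The other 8 genes had log2 fold changes between -0.05 and 0.33, none of them past the FDR cutoff. *H19*, with the largest of these changes, was at 2026 to 2595 CPM at E15.5 and 2680 to 3194 CPM at E18.5 (log2 fold change 0.33 ± 0.29, edgeR FDR = 0.45).

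The interval across birth was set against the one before it in the same fit, as the E18.5 to P5 change minus the E15.5 to E18.5 change. The intervals share the E18.5 libraries and differ in length. Of the 10 genes, 7 were called lower in this contrast, against 8.16% of all genes. They were *H19* (-3.74 ± 0.49), *Igf2* (-3.72 ± 0.40), *Dlk1* (-2.79), *Grb10* (-2.08), *Cdkn1c* (-1.90), *Mest* (-1.43) and *Plagl1* (-1.31), with edgeR FDR between 1.7e-07 and 8.2e-05. *Peg3* was the eighth past the FDR cutoff alone (-0.88, edgeR FDR = 0.0022), which 25.2% of all genes were in this direction. The difference was 0.61 ± 0.45 for *Meg3* (edgeR FDR = 0.28) and 0.02 for *Ndn* (standard error 0.16, edgeR FDR = 0.93). For these 2 genes a difference between the intervals was thus not detected. The contrast takes the whole change of each interval and not the change per day.

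From P5 to P8 none of the 10 genes was called, while 2.96% of all genes were. Of the 10, 4 were lower and 1 was higher past the FDR cutoff alone, against 8.21% and 9.75% of all genes. *Mest* fell on to 233, 221 and 213 CPM (log2 fold change -0.59 ± 0.085, edgeR FDR = 0.0019). *Dlk1* fell to 94.1, 83.1 and 82.5 CPM (-0.46, edgeR FDR = 0.0061). *Plagl1* fell to 110.4, 113 and 121 CPM (-0.40, edgeR FDR = 0.0052) and *Grb10* to 263, 269 and 291 CPM (-0.27, edgeR FDR = 0.017). In these 4 genes, and in *Cdkn1c*, the P8 libraries lay below all P5 libraries, as they did in 16.3% of genes. *Cdkn1c* was at 44.1, 45.2 and 43.9 CPM at P8 (-0.15, edgeR FDR = 0.15), *Peg3* at 159, 164 and 192 CPM (-0.15, edgeR FDR = 0.36) and *Ndn* at 68.0, 59.7 and 69.5 CPM (0.21, edgeR FDR = 0.14).

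*Igf2* and *H19* were the genes with the widest spread at P8. *Igf2* was at 237, 199 and 97.9 CPM in P8 replicates 1, 2 and 3, and *H19* at 528, 327 and 170.1 CPM. Replicate 3 lay within or below the P5 libraries for both genes, and the other replicates lay above them. The summed level of the 8 skeletal muscle genes in the same 3 libraries was 532, 141 and 7.33 CPM, and that of the 9 thymus genes 174, 336 and 15.7 CPM. A list of 4 liver genes summed to 10.5, 103 and 33.7 CPM, lowest in replicate 1, and to between 2.06 and 2.81 CPM at P5. At P5 the muscle genes summed to 6.90, 12.5 and 164 CPM, and P5 replicate 3, the library with the highest sum, was also the highest of the 3 for *Igf2* and *H19*. *H19* was lower in P5 replicate 2 than in replicate 1 (236 against 266 CPM), against the order of the muscle sums. P5 replicate 3 was above P8 replicate 2 for the muscle genes but below it for *Igf2* (106.6 against 199 CPM) and *H19* (288 against 327 CPM). The log2 fold change of *Igf2* from P5 to P8 was 0.84 ± 0.24 with all libraries (edgeR FDR = 0.036). It was 1.12 and past both cutoffs without P8 replicate 3. With other single libraries left out it was as low as 0.53, and the edgeR FDR was as high as 0.15. For *H19* the change was 0.37 ± 0.30 with all libraries (edgeR FDR = 0.41). Leaving out the muscle-high or the thymus-high libraries leaves replicate 3 as the 1 P8 library, so that the changes of 0.00 and -0.04 for *Igf2* and of -0.60 and -0.65 for *H19* restate its low values. The part of muscle or thymus RNA in these levels was not tested. The E18.5 to P5 changes of *Igf2* and *H19* were -3.81 and -3.45 without the muscle-high libraries.

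**Figure D3:**
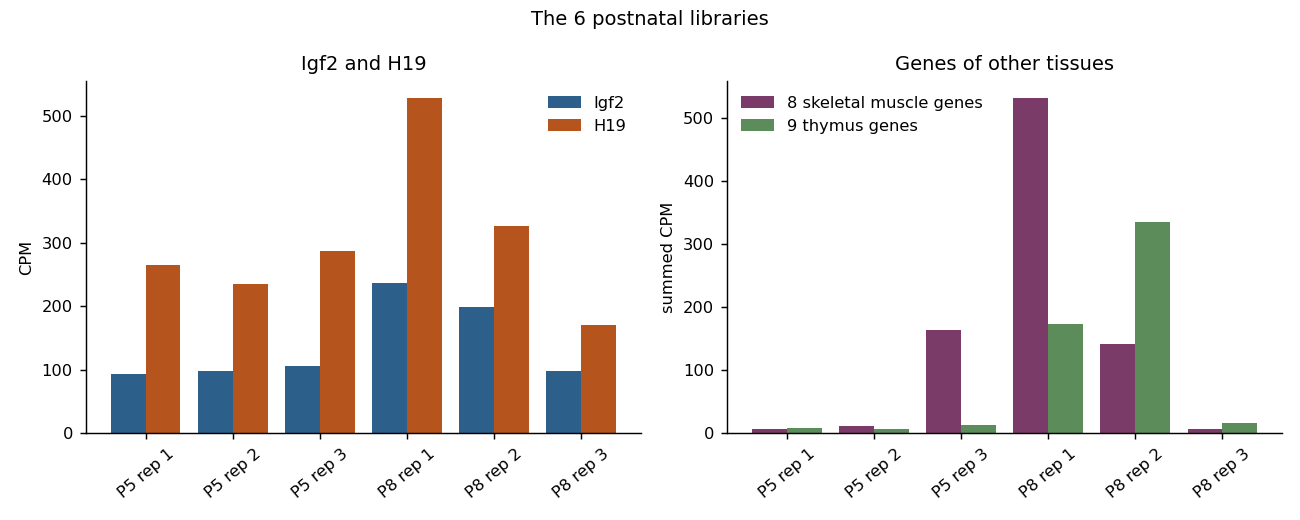
Left, CPM of *Igf2* and *H19* in each of the 6 postnatal libraries. Right, the summed CPM of 8 skeletal muscle genes and 9 thymus genes in the same libraries, where P8 replicate 1 is highest for muscle (532 CPM), for *Igf2* (237 CPM) and for *H19* (528 CPM). P5 replicate 3 is above P8 replicate 2 for muscle (164 against 141 CPM) and below it for *Igf2* and *H19*.

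*Meg3* was at 33.4, 32.3 and 50.1 CPM at P8, all above its P5 libraries and overlapping E18.5. Its change from P5 was 0.76 ± 0.26 (edgeR FDR = 0.062), and 1.005 and past both cutoffs without P5 replicate 2. Without P5 replicate 1, the lowest P5 library at 12.1 CPM, the change was 0.47. The edgeR FDR was as high as 0.17 with single libraries left out. Its highest P8 library, replicate 3, was the lowest of the 3 for *Igf2* and *H19*.

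Over the whole time course, from E15.5 to P8, 8 of the 10 genes were called lower, against 11.5% of all genes. *Dlk1* changed most (-3.06), then *Igf2* (-2.99), *H19* (-2.70), *Grb10* (-2.35), *Cdkn1c* (-1.97), *Mest* (-1.93), *Plagl1* (-1.70) and *Meg3* (-1.34). *Peg3* (-0.83) and *Ndn* (-0.70) were past the FDR cutoff alone, so that all 10 were, against 38.7% of all genes. *Meg3* fell short of the fold cutoff without the 3 thymus-high libraries (-0.94) and without the 3 muscle-high libraries (-0.96), each with 1 P8 library left. By parental copy, 4 of the 6 paternally expressed genes and 3 of the 4 maternally expressed genes were called lower from E18.5 to P5, with median log2 fold changes of -1.34 and -1.97, and the difference between these medians was not tested.

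Neighbouring genes of opposite parental expression were compared within each library, which removes depth and the normalization. The ratio of *H19* to *Igf2* CPM was 1.60, 1.52 and 1.62 in the E15.5 libraries and 2.05, 2.12 and 1.996 in the E18.5 libraries. After birth it was 2.86, 2.42 and 2.70 at P5, and 2.23, 1.65 and 1.74 at P8. It was higher at each time-point up to P5, with no overlap between neighbouring time-points. The ratio of *Meg3* to *Dlk1* moved in a different way, with means of 0.135 and 0.0490 in the E15.5 and E18.5 lungs and of 0.180 and 0.438 in the P5 and P8 lungs, again without overlap. The large difference was between E18.5 and P8, 0.0399 to 0.0546 against 0.355 to 0.607. An exact two-sided permutation test gave p = 0.10 for each step of both ratios, the smallest value that 3 replicates against 3 can give, and 0.11 after Benjamini-Hochberg adjustment over the 20 comparisons made.

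**Figure D4:**
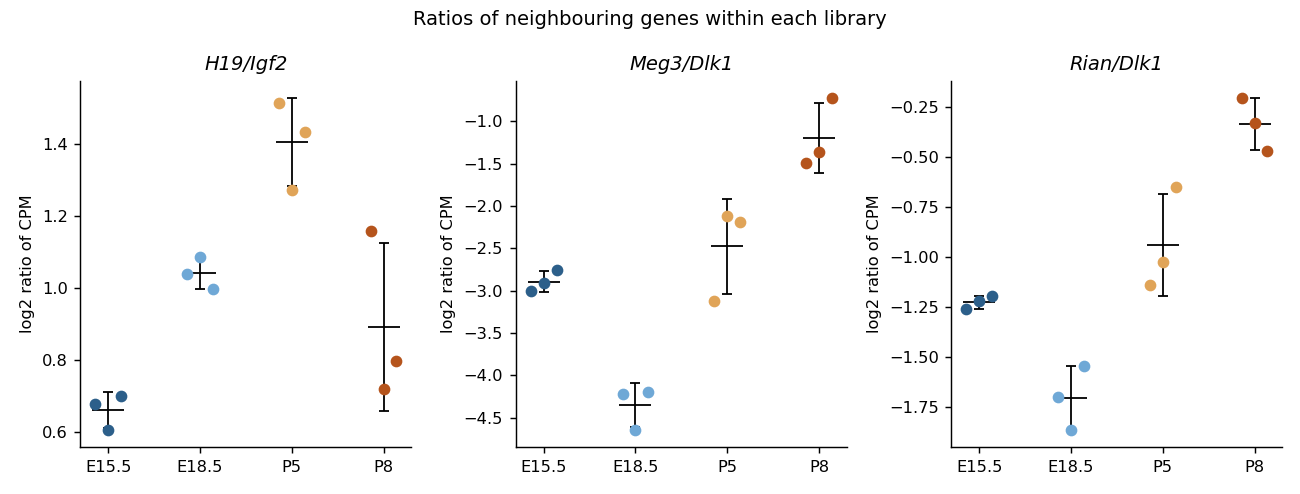
Log2 ratio of CPM within each library for *H19* over *Igf2*, *Meg3* over *Dlk1* and *Rian* over *Dlk1*, with points for libraries, lines for means and bars for 1 SD (n = 3). The first ratio is highest at P5, and the other ratios are lowest at E18.5 and highest at P8.

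The *Dlk1* to *Meg3* domain also gives rise to *Rian* and *Mirg*, long non-coding RNAs read in the same direction as *Meg3* from the maternal copy. *Rian* was at 260, 223 and 262 CPM at E18.5 and at 47.6, 64.1 and 74.8 CPM at P5, so that the log2 fold change was -1.92 ± 0.15 (edgeR FDR = 2.3e-07). *Mirg* changed by -2.53 ± 0.32 (edgeR FDR = 1.7e-05). *Rian* over *Meg3* was 5.71, 6.87 and 6.27 at E18.5 and 3.94, 2.13 and 2.90 at P5, lower in every P5 library than in any E18.5 library (exact permutation p = 0.10, 0.11 after adjustment).

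Across a list of 58 other imprinted genes, of which 52 passed the filter on low counts, 15 were called lower and 8 higher from E18.5 to P5, when 9.34% and 17.5% of all genes were. Their median log2 fold change was -0.22. The largest falls were in *Ascl2* (-2.79), *Mirg*, *Asb4* (-1.94), *Rian*, *Slc38a4* (-1.74) and *Zdbf2* (-1.71). *Slc38a4*, an amino acid transporter known from placenta and liver, was at 131, 119 and 127 CPM at E18.5 and at 33.2, 39.4 and 33.9 CPM at P5. The largest rises were in *Slc22a3* (3.07), *Tspan32* (3.03), *Pon3* (2.57), *Kcnq1* (1.78), *Pon2* (1.66) and *Peg13* (1.52). *Pon3*, a paraoxonase, was at 10.8, 12.9 and 10.99 CPM at E18.5 and at 69.5, 61.6 and 62.5 CPM at P5. *Ascl2*, *Slc22a3* and *Tspan32* were low genes, with no library above 6.35 CPM. A fall after birth was thus not shared by all genes of the list. Whether each of them is imprinted in the lung was not measured. From E15.5 to E18.5 only *Magel2* was called (-1.82, edgeR FDR = 0.037), and from P5 to P8 only *Dcn* (1.68, edgeR FDR = 0.0050). The *Magel2* call was lost without any 1 of the 6 embryonic libraries and without P5 replicate 2, and the *Dcn* call without the thymus-high or the muscle-high libraries, which leaves 1 P8 library.

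The imprinted neighbours of the 10 genes were called in both directions only in the domain of *Igf2*, *H19* and *Cdkn1c*. There *Ascl2* fell while *Kcnq1*, *Tspan32* and *Slc22a18* (1.27, edgeR FDR = 5.3e-04) rose. All 4 tested neighbours of *Dlk1* and *Meg3*, both of *Peg3*, both of *Mest* and all 5 of *Ndn* had log2 fold changes below 0, and *Phactr2* next to *Plagl1* (0.61) and *Ddc* next to *Grb10* (0.88) were past the FDR cutoff and higher. Next to *Peg3*, *Usp29* (-1.34) and *Zim1* (-1.04) were called lower. Next to *Ndn*, *Peg12* was called lower (-1.46, edgeR FDR = 5.2e-08) while *Ndn* itself was not. *Copg2*, which overlaps 23.1% of the exon bases of *Mest* on the opposite strand, was at -0.29, and *Klf14*, also next to *Mest*, was called lower (-1.25, edgeR FDR = 0.0094).

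**Figure D5:**
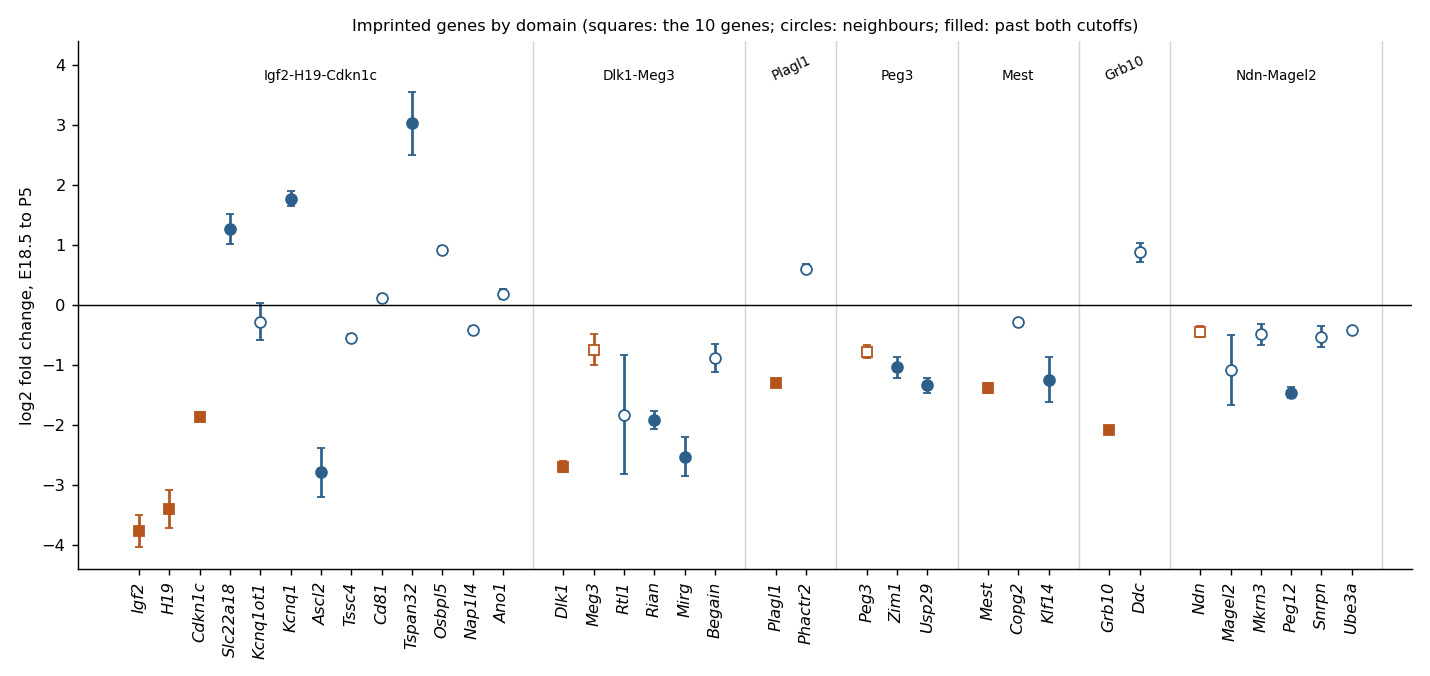
Log2 fold change of the 10 genes (squares), P5 against E18.5, and of the other imprinted genes near them that were tested (circles), grouped by domain, with bars for the standard error and filled points past both cutoffs. The domain of *Igf2* holds both the largest falls, to -3.77, and rises up to 3.03.

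The RNAs of the receptors and binding proteins of IGF2 changed unevenly across birth. Of 10 genes examined, 9 were tested. *Igf2r*, the receptor that takes up IGF2 for breakdown and is itself imprinted, went from 453, 422 and 384 CPM at E18.5 to 157, 145 and 146 CPM at P5 (log2 fold change -1.40 ± 0.16, edgeR FDR = 5.1e-06). *Igf1r* and *Insr*, which carry the growth signal, were at -0.09 and 0.15, neither past the FDR cutoff. Of the secreted binding proteins, *Igfbp7* rose from 41.3, 41.3 and 27.4 CPM to 477, 455 and 494 CPM (3.78 ± 0.16, edgeR FDR = 2.7e-09). *Igfbp6* rose at both steps after E18.5, by 1.40 and 1.56. *Igfbp5* fell across birth under the fold cutoff (-0.75, edgeR FDR = 9.3e-06) and was called higher from P5 to P8 (1.29, edgeR FDR = 5.1e-05), for a change of 0.45 from E15.5 to P8. *Igfbp4* rose across birth by 0.56 (edgeR FDR = 2.6e-06).

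Other measures moved over the same interval. Of 18 cell cycle genes, 14 were called lower from E18.5 to P5, with a median of -1.31, among them *Mki67* (-1.16) and *Top2a* (-1.46). *Cdkn1c*, the cell cycle inhibitor among the 10 genes, was lower by 1.86. The summed level of 9 mesenchyme genes was 4127 to 4338 CPM at E18.5 and 4159 to 4621 CPM at P5, while *Lum* (-2.35) and *Dcn* (-1.39) of this list were called lower and *Tcf21* (1.07) higher. The sum of 6 epithelial genes went from between 1881 and 2735 to between 12139 and 13731 CPM. This rise was that of *Sftpc* alone, called higher (3.20), whose mean rose from 1417 to 12281 CPM. *Nkx2-1*, *Epcam*, *Cdh1*, *Krt8* and *Krt18* all had lower means at P5, and *Epcam* was called lower (-1.62). The median log2 fold change of the epithelial list was -0.45. With the FDR cutoff alone, 1 of its genes was higher and 4 were lower. The sum of 6 endothelial genes went from between 1010.5 and 1086 to between 2369.6 and 2484 CPM, and that of 6 immune genes from between 75.8 and 85.5 to between 2076 and 2665 CPM. The part of these shifts in the lower shares of the 10 genes was not tested.

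The time course of the group was described by the mean z-score of its log2(CPM + 1) values. Each gene was compared with the mean of the other 9 over the 12 libraries. Pearson's r was between 0.93 and 0.99 for 8 genes, 0.85 for *Ndn* and 0.67 for *Meg3*. Of 10613 other genes with a mean of at least 10 CPM, the closest to the group were *Cdca7l*, *Pold2*, *Pdgfc*, *Nme4* and *Cldn6*, with r between 0.996 and 0.998. These correlations follow the step between embryonic and postnatal libraries, and 30.7% of the genes compared had r above 0.9. *Pdgfc*, a growth factor, went from a mean of 27.9 CPM at E18.5 to 3.79 CPM at P5, and *Pold2*, a subunit of DNA polymerase delta, from 90.8 to 36.8 CPM.

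Promoter windows of 300 bases, 250 before and 50 after an annotated start, were taken from RefSeq (GRCm38.p6). They were found for 8 of the 10 genes, 15 windows in all, and not for *H19* and *Cdkn1c*. The windows were searched on both strands for TGCCGC, the hexamer that the imprinting factor ZFP57 binds when it is methylated, which reads GCGGCA on the other strand. It was present in 6 of the 15 windows, in 5 genes, and in 11.6% of all 32851 windows. The *Mest* windows that hold it overlap almost wholly and count the same sites, of which 1 is shown. The stretches are shown because this motif sits in genes with large and small changes alike. They read 5′ to 3′ along the gene with the hexamer in capitals.
*Igf2*, chr7:142661225-142661252, minus strand: acggtgtcccaGCGGCAgcacagatttt
*Meg3*, chr12:109540795-109540822, plus strand: ccaggggcactGCGGCAgattttttttt
*Plagl1*, chr10:13090731-13090758, plus strand: tggcgtgttgcGCGGCAaagcccacggc
*Mest*, chr6:30737972-30737999, plus strand: ggaggggcgctGCGGCAggatgggcggg
*Grb10*, chr11:12037380-12037407, minus strand: ggtgcggggagGCGGCAggaagggaagg
GGGGCCCC, a GC-rich core bound by PLAGL1, was in 1 of the 15 windows, that of *Peg3*, and in 1.08% of all windows. CpG counts per window ran from 1 in a *Meg3* window to 45 in a *Grb10* window, with a median of 13 where that of all windows was 7. A match in these letters is a description of the sequence, and binding was not measured.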

How the data were processed

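Bulk RNA-seq of whole lungs was analysed in 12 libraries, 3 at each of 4 time-points. Per the labels and the study's methods, RNA was purified with a column kit and made into TruSeq libraries. The authors mapped unique reads to mm10 with TopHat2 2.1.1 and Bowtie2 2.3.4, counted them on Gencode vM14 genes with HTSeq 0.10.0, and deposited raw counts of 16152 expressed genes and CPM of 51825 genes. The strand setting of the counting was not given in the sources used here. Gencode vM21 (same build) gave positions and exon lengths. There *Igf2* shares 62.8% of its exon bases with Gm49394, which is not a row of the CPM table, and *Cdkn1c* shares 30.7% with an antisense gene at no more than 0.144 CPM, so the reads of overlapping genes may be split. Symbols were matched for 16136 of the 16152 identifiers.

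The deposited CPM are scaled to all mapped reads of a library: 100% of values were whole reads within 0.1, and the reads recovered (48436716 to 62279460 mapped per library) were used in an added alternative. Counts were tested with edgeR 4.0.16 (R 4.3.3; TMM, quasi-likelihood, all 12 libraries, 15994 genes reaching 1 CPM in 3 or more libraries), with Benjamini-Hochberg FDR over all of them. On simulated counts for E18.5 to P5 (15717 genes), 198 of 200 genes changed by 1.5 on the log2 scale and 0 unchanged genes were called. The simulation gave all genes the same spread and no litter differences, so it does not cover genes that vary more. A deposited table of splicing values was not used, since its rows carry event identifiers and no gene names. CPM values are listed by replicate, in the order 1, 2, 3.

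The 10 genes, the lists and the tests were chosen with earlier results of these data known. All 10 are named, with, of the other imprinted genes, the 6 largest falls and rises called from E18.5 to P5. Further neighbours, *Igf2os*, *Magel2* and *Dcn* were named after their values were seen. Alternatives were RLE or library size scaling, DESeq2 1.42.0, no filter, single pairs of time-points, a replicate block, libraries left out, and FDR alone.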

Additional observations from a re-analysis of the deposited data

How the results depend on the processing

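The 7 calls from E18.5 to P5 did not change in number under any other scaling, test, filter or set of libraries, apart from 8 calls without P5 replicate 2 and 10 with the FDR cutoff alone. For the other comparisons, the FDR cutoff alone gave 2 of the 10 genes before birth (E15.5 to E18.5) and 5 after it (P5 to P8), and 13, 39, 11 and 43 of the other imprinted genes over E15.5 to E18.5, E18.5 to P5, P5 to P8 and E15.5 to P8. Leaving out each library in turn gave 0 to 1 of the 10 genes called from P5 to P8, and of the other imprinted genes 0 to 1 between the embryonic and 1 to 2 between the postnatal time-points. Without the 2 libraries high in heart genes, 0 of the 10 and 0 of the other imprinted genes were called from E15.5 to E18.5, with 1 E15.5 library left. Without the 3 thymus-high or the 3 muscle-high libraries, 0 other imprinted genes were called from P5 to P8, with 1 P8 library left. The lone library is assumed to vary as the other groups do, and a call lost there does not show a smaller change: that of *Meg3* went from -1.36 to -1.44. The muscle and heart sets and the recovered reads were chosen after seeing the data, and with the recovered reads the 4 counts of the 10 genes were 1, 7, 0 and 8.

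Signs turned only for changes that were not called. From E15.5 to E18.5, the log2 fold changes without the heart-high libraries were 0.20 for *Igf2*, -0.15 for *Plagl1*, -0.050 for *Peg3* and -0.091 for *Grb10*. Without the thymus-high libraries they were 0.053 for *Igf2*, -0.068 for *Plagl1*, -0.029 for *Peg3* and -0.029 for *Grb10*, and with library size alone -0.015 for *Plagl1* and -0.015 for *Grb10*. Leaving out single libraries gave -0.16 to 0.052 for *Igf2*, -0.068 to 0.081 for *Plagl1*, -0.012 to 0.099 for *Cdkn1c*, -0.030 to 0.17 for *Peg3*, -0.0017 to 0.13 for *Mest* and -0.033 to 0.049 for *Grb10*. From P5 to P8, *Igf2* was at -0.041 without the thymus-high and -0.0034 without the muscle-high libraries, *H19* at -0.65 and -0.60, and *Peg3* at 0.0032 without the thymus-high libraries. *H19* ranged from -0.13 to 0.69 with single libraries left out.

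Replicate numbers are shared by the 4 time-points. The deviations of the 18 pairs of same-numbered libraries had r from -0.34 to 0.30, with a median of 0.0065 and 3 above 0.1. The median of the other pairs was 0.021. No pairing by number was seen, though a weak one could be missed. With a replicate block the calls were 1, 7, 0 and 8 of the 10 genes and 1, 23, 1 and 25 of the other imprinted genes, as without it, and 7 for the difference between the intervals. With 3 libraries a group from a single litter, p-values cover the spread within litters. The lowest count of any of the 10 genes was 753, so depth did not limit them.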
